A study of Mus musculus with 61 samples.

Results

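Cdkn1a encodes p21, an inhibitor of cyclin-dependent kinases (CDKs), and it is described here as 1 of the 23927 gene rows of a table of single ovarian cells. The gene was chosen by name. Single oocytes, which are female germ cells, and single granulosa cells, the somatic cells around them, came from wild-type CD-1 mice at postnatal day 5. CD-1 is an outbred stock. The cells were collected 6 hours after an intraperitoneal injection of solvent, for the control groups, or of doxorubicin, an anti-cancer drug that damages DNA. The unit written beside the dose is not a unit of dose, so no dose is given here. All cells carried the same genotype and the same batch label. There were 16 control oocytes, 16 doxorubicin oocytes, 16 control granulosa cells and 13 doxorubicin granulosa cells, or 61 libraries of 1 cell each. No animal, litter or culture was named for any cell. Each of the 4 groups was therefore counted as 1 sample, no difference was tested, and the spread between animals is unknown.

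The p21 protein binds cyclin and CDK complexes and holds cells at the border of G1 and S phase, and it also binds PCNA, the sliding clamp of DNA replication. Its gene is among the best known targets of the transcription factor p53, which accumulates after DNA breaks. Oocytes of primordial and primary follicles carry TAp63, a p53 relative encoded by Trp63 that is activated when their DNA is damaged, and they are arrested in meiotic prophase rather than dividing.

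Cdkn1a lies on chromosome 17 of the mouse genome at chr17:29090976-29100727 on the plus strand (GRCm38, GENCODE M21). Its main transcript has 3 exons, and its longest annotated transcript has 2080 bases. RefSeq (GRCm38.p6) gives 2 starts of transcription for the gene, and the 250 bases before each are shown because p53 and its relatives are known to act near the upstream one. The first line ends at the base before the upstream start (chr17:29090729-29090978), and its capitals mark the 1 stretch that matched the p53 consensus. The second line ends at the base before the downstream start (chr17:29093519-29093768), and its capitals mark 2 GC boxes (GGGCGG) and a TATAA.
Cdkn1a, upstream start: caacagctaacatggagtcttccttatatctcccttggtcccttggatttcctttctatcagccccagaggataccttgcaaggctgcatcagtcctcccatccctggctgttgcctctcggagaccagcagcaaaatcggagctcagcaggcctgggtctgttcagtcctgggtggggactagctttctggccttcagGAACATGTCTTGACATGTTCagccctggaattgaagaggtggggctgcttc
Cdkn1a, downstream start: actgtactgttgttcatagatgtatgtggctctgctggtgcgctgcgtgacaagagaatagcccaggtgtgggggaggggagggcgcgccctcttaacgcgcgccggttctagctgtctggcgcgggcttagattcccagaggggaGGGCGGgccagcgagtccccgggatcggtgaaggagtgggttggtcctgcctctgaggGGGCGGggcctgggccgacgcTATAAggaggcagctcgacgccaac
The p53 consensus is a pair of adjoining half-sites of 10 bases. It was searched on both strands with no spacer and at most 1 mismatch. The match at chr17:29090928-29090947 begins 51 bases before the upstream start. Such a match stood in 25 of 32851 RefSeq promoter windows of 250 bases (0.0761%), or in 25 of 27025 genes with a window (0.0925%). Among 34 other listed p53-family targets with a window, Ccng1 and Rps27l each held 1 (2 of 34 genes, or 5.88%). Rps27l was named after this was seen. The 3 sites are set side by side, with bases that match the consensus in capitals. That of Ccng1 lies at chr11:40755462-40755481 on the minus strand, and that of Rps27l at chr9:66946296-66946315 on the plus strand.
Cdkn1a: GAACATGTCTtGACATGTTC
Ccng1: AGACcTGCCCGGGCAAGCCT
Rps27l: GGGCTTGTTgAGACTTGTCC
The downstream window came no closer to the p53 consensus than 5 mismatches. A GC box on either strand stood in 32.7% of all windows, and TATAA within the last 50 bases before the start in 4.93%; its TATAA begins 25 bases before the start. These matches describe letters only. Binding was not measured, and the counts do not separate the 2 starts.

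Total counts per cell ranged from 6834594 to 31262609, with a median of 11127487. No cell repeated another within sampling noise. Levels are CPM, the share of the cell's or the group's summed counts scaled to a fixed total. Marker genes were set beside the labelled cell types. Every oocyte held more summed CPM of 19 oocyte markers than of 19 granulosa markers, and the highest granulosa marker sums were 767 CPM among control oocytes and 3126 CPM among treated ones. The granulosa libraries carried many oocyte transcripts. The oocyte marker sum ranged from 450 to 18580 CPM in control granulosa cells (median 1790) and from 410 to 46592 CPM in doxorubicin granulosa cells (median 9213). In 6 of 16 control and 8 of 13 doxorubicin granulosa cells it was larger than the sum of granulosa markers. Only Oosp1 of the oocyte markers was at 0 counts in control granulosa cells, and none was at 0 after doxorubicin. Stroma markers summed to as much as 13316 CPM in control and 7961 CPM in doxorubicin granulosa cells. They exceeded the granulosa markers in control cells 2, 8, 13, 14 and 16 and in doxorubicin cells 6 and 13. Blood and immune markers summed to as much as 437 CPM in control and 33378 CPM in doxorubicin granulosa cells.

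Both cell types had more Cdkn1a after doxorubicin, and the ratio was larger in granulosa cells, a difference that was not tested. In control oocytes it ranged from 0.0793 to 41.95 CPM per cell with a median of 16.1 CPM. In doxorubicin oocytes it ranged from 7.90 to 289 CPM with a median of 115 CPM. The groups overlapped: 12 of 16 doxorubicin oocytes lay above the highest control oocyte, while cells 2, 7, 15 and 16 lay within the control range at 33.5, 7.90, 15.6 and 19.9 CPM. Control granulosa cells ranged from 0.0762 to 126 CPM with a median of 0.313 CPM. Doxorubicin granulosa cells ranged from 0.577 to 4606 CPM with a median of 649 CPM. Here 11 of 13 doxorubicin cells lay above the highest control cell, and cells 1 and 4 lay within the control range at 7.89 and 0.577 CPM.

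**Figure D1:**
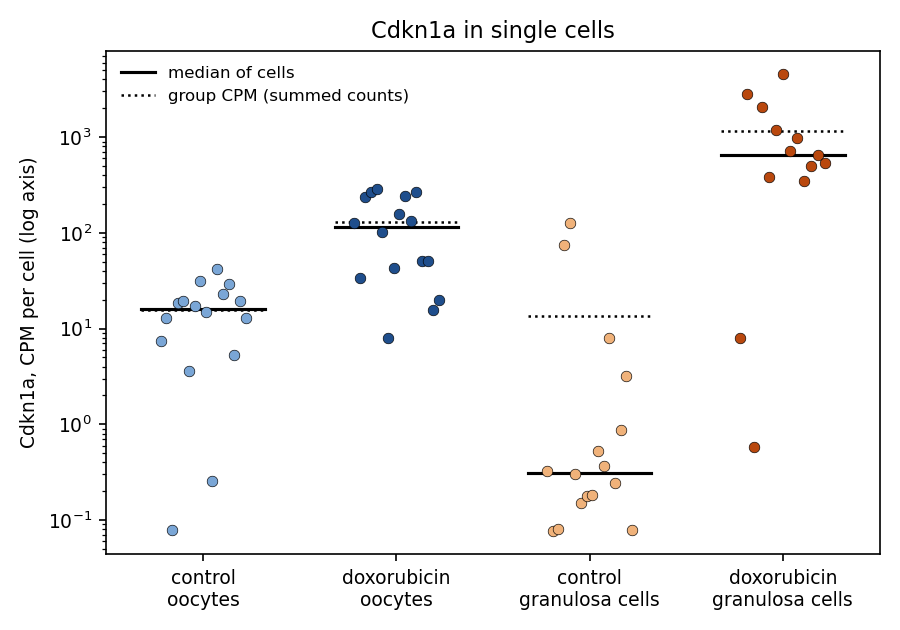
Cdkn1a in each of the 61 cells, in CPM on a log axis, by group. Each point is 1 cell, the solid line is the median of the cells and the dotted line is the CPM of the group's summed counts. In control granulosa cells the dotted line (13.5 CPM) stands far above the median (0.313 CPM), because 2 cells hold most of the reads.

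From summed counts, the oocyte level went from 15.7 CPM (95% counting interval 15.1 to 16.2) to 130 CPM (129 to 132). The log2 ratio of doxorubicin over control was 3.06 (3.002 to 3.112), or 8.32-fold. In 232 of 256 pairs of a doxorubicin and a control oocyte the doxorubicin cell was higher (90.6%). Leaving out any 1 cell kept the ratio between 2.91 (without doxorubicin oocyte 5) and 3.20 (without control oocyte 11). Doxorubicin oocyte 4, whose raw data are stated as lost, had 268 CPM, and without it the ratio was 2.93. Intervals are exact and cover counting error only, since the reads passed through PCR, carry no molecular identifiers and so do not count separate molecules.

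In granulosa cells the summed level went from 13.5 CPM (13.01 to 14.09) to 1161 CPM (1155 to 1166). The log2 ratio was 6.42 (6.36 to 6.48), or 85.7-fold, and the doxorubicin cell was higher in 200 of 208 pairs (96.2%). The control level rested on few cells. Cells 5 and 4, at 126 and 74.6 CPM, held 94.5% of the group's Cdkn1a reads, cells 12 and 15 had 7.998 and 3.16 CPM, and the other 12 had under 1 CPM. Without control cell 5 the ratio was 7.62. The reads of the doxorubicin group were spread over more cells, with 32.9% in cell 9 (4606 CPM), and without that cell the ratio was 5.97. Cells 2 and 6 had 2837 and 2077 CPM, and the other 8 cells above the controls lay between 352 and 1178 CPM.

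Cdkn1a had 5 or more reads in 14 of 16 control oocytes (87.5%, exact binomial interval 61.7% to 98.4%) and in 16 of 16 doxorubicin oocytes. The same number was reached in 6 of 16 control granulosa cells (37.5%, 15.2% to 64.6%) and in 13 of 13 doxorubicin granulosa cells. After thinning every cell to 6834594 counts, the share of control granulosa cells was 5 of 16 (31.25%), and the other shares were the same. Every library, including the lowest control granulosa cells, held at least 1 read.

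The order of the summed levels was control granulosa cells, control oocytes, doxorubicin oocytes and doxorubicin granulosa cells. The first pair did not separate. Their log2 ratio was 0.21 (oocytes over granulosa cells, 0.13 to 0.29), all 16 control oocytes lay within the range of the control granulosa cells, and without control granulosa cell 5 the ratio was 1.41. The typical control oocyte was nevertheless above the typical control granulosa cell, at a median of 16.1 against 0.313 CPM, and it was higher in 202 of 256 pairs (78.9%). After doxorubicin the oocyte level was lower than the granulosa level by a log2 ratio of -3.15 (-3.17 to -3.13). The oocyte was the higher cell in 32 of 208 pairs (15.4%), all of them pairs with granulosa cell 1 or 4. All 16 doxorubicin oocytes lay within the granulosa range, in the gap between those 2 cells and the other 11. These comparisons use the same 4 groups and are not independent of the drug comparisons.

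Over all genes that reached 5 CPM in 1 of the groups compared, the log2 ratio of Cdkn1a ranked 150 of 11102 in oocytes, where the median gene was at 0.01 and the quartiles at -0.24 and 0.25. It ranked 486 of 12179 in granulosa cells, where the median was -0.03 and the quartiles were -0.76 and 0.76. When each gene was ranked by its ratio nearest 0 over leaving out 1 cell, Cdkn1a stood at 128 in oocytes and 244 in granulosa cells.

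Transcripts of the other cell type moved with Cdkn1a in part of the groups. In doxorubicin oocytes the Spearman rho of Cdkn1a with the granulosa marker sum was 0.56 over 16 cells. It was 0.53 without oocytes 9 and 11, the 2 cells whose granulosa marker sum was farthest from the median. Doxorubicin oocytes 9, 11 and 12, with 3126, 2668 and 2056 CPM of granulosa markers, had 158, 133 and 269 CPM of Cdkn1a. Among oocytes under 200 CPM of granulosa markers, the group level was 19.03 CPM in 10 control cells and 89.6 CPM in 11 doxorubicin cells, a log2 ratio of 2.24. In that subset 7 of 11 doxorubicin oocytes lay above the highest such control. In doxorubicin granulosa cells rho with the oocyte marker sum was -0.03 over 13 cells. The cells with the least Cdkn1a, 4 and 1, had oocyte marker sums of 25528 and 46592 CPM, but cell 6 had 32879 CPM of them and 2077 CPM of Cdkn1a. Among cells with more granulosa than oocyte marker CPM, the level was 21.8 CPM in 10 control cells and 656 CPM in 5 doxorubicin cells. The latter ranged from 352 to 1178 CPM, 5 of 5 lay above the highest such control, and the log2 ratio was 4.91. These cells were not screened for markers of further cell types. Doxorubicin cell 15 among them held 33378 CPM of blood and immune markers beside 8286 CPM of granulosa markers. Doxorubicin cell 13 held 7961 CPM of stroma markers beside 1656 CPM of granulosa markers. The 2 control oocytes with almost no Cdkn1a, cells 3 and 10 (0.0793 and 0.254 CPM), had the lowest oocyte marker sums of their group, at 27956 and 30491 CPM. The part of such transcripts or of cell condition in the Cdkn1a levels was not tested. The Spearman coefficient of Cdkn1a with the total count was -0.27, 0.15, -0.52 and -0.13 in control oocytes, doxorubicin oocytes, control granulosa cells and doxorubicin granulosa cells.

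**Figure D2:**
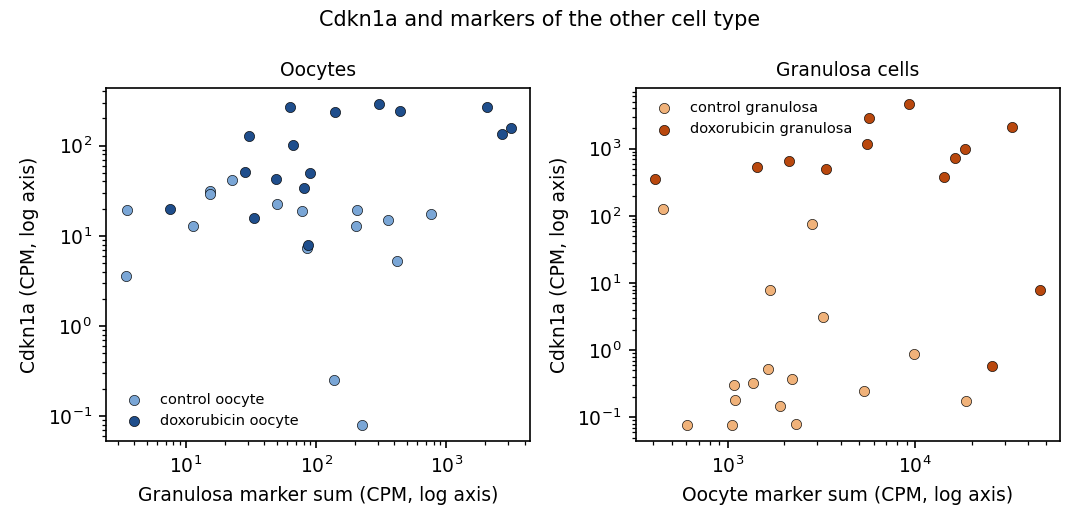
Cdkn1a (CPM, log axis) against the summed CPM of the other cell type's markers (log axis), granulosa markers in oocytes on the left and oocyte markers in granulosa cells on the right. Each point is 1 cell. Doxorubicin oocytes with the most granulosa markers lie at 133 to 269 CPM of Cdkn1a, and the doxorubicin granulosa cells at 7.89 and 0.577 CPM are among those with the most oocyte markers.

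Of the other CDK inhibitors, Cdkn2b had a higher summed level in doxorubicin than in control cells of either type, and Cdkn2c in oocytes. Of the 6 other inhibitors, 5 reached 5 CPM in oocytes, and 2 of these had a log2 ratio of at least 1, which 6.29% of all 11102 genes had. In granulosa cells 1 of 5 did, against 20.6% of all 12179 genes. None was at -1 or below, against 2.45% and 20%. Cdkn2b, which encodes p15 and blocks CDK4 and CDK6, ranged from 0 to 9.61 CPM in control oocytes (median 3.37) and from 0 to 59.1 CPM in doxorubicin oocytes (median 16.0025). Its log2 ratio was 2.80 (2.68 to 2.93), and 11 of 16 doxorubicin oocytes were above the highest control. In granulosa cells Cdkn2b had 3 counts in all control cells and 14.6 CPM after doxorubicin, giving a log2 ratio of 9.77 (8.22 to 12.05), or 8.60 when doxorubicin cell 12 was left out. Only 4 of 13 doxorubicin granulosa cells had a read of it. Cdkn2c (p18) was at 2.45 on the log2 scale in oocytes and at -0.71 in granulosa cells. Leaving out doxorubicin oocyte 4 gave 1.37, and leaving out control oocyte 4 gave 5.08. The oocyte medians of Cdkn2c were 0 CPM in control and 0.081 CPM in doxorubicin cells. Only 7 of 16 doxorubicin oocytes had 5 or more reads of it, and 2 lay above the highest control. In granulosa cells it was -2.51 without doxorubicin cell 16 and 0.71 without control cell 6, so its direction there rested on 1 cell.

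Cdkn1b (p27) and Cdkn1c (p57), the closest relatives of p21, had oocyte log2 ratios of -0.19 and 0.01 and granulosa log2 ratios of 0.51 and 0.04. Cdkn2d (p19) was at -0.01 and -0.08. The ratios of Cdkn1c and Cdkn2d changed sign in both cell types when 1 cell was left out, and in granulosa cells reached 0.96 (Cdkn1c, without control cell 8) and 0.55 (Cdkn2d, without control cell 13). By the medians of the cells Cdkn1b was at 0.18 in oocytes, and among granulosa cells with few oocyte markers at -0.68. Cdkn2a stayed under 5 CPM in oocytes, with 0.19 and 0.64 CPM, and had no count in granulosa cells. Per kilobase of the longest annotated transcript, Cdkn1a went from 7.54 to 62.7 CPM in oocytes and from 6.51 to 558 CPM in granulosa cells. On the same scale Cdkn1c was at 31.7 and 31.9 CPM per kilobase in oocytes and at 14.1 and 14.5 in granulosa cells. Cdkn1a was thus below Cdkn1c in control oocytes and above it in doxorubicin oocytes, and the same held for the granulosa groups.

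**Figure D3:**
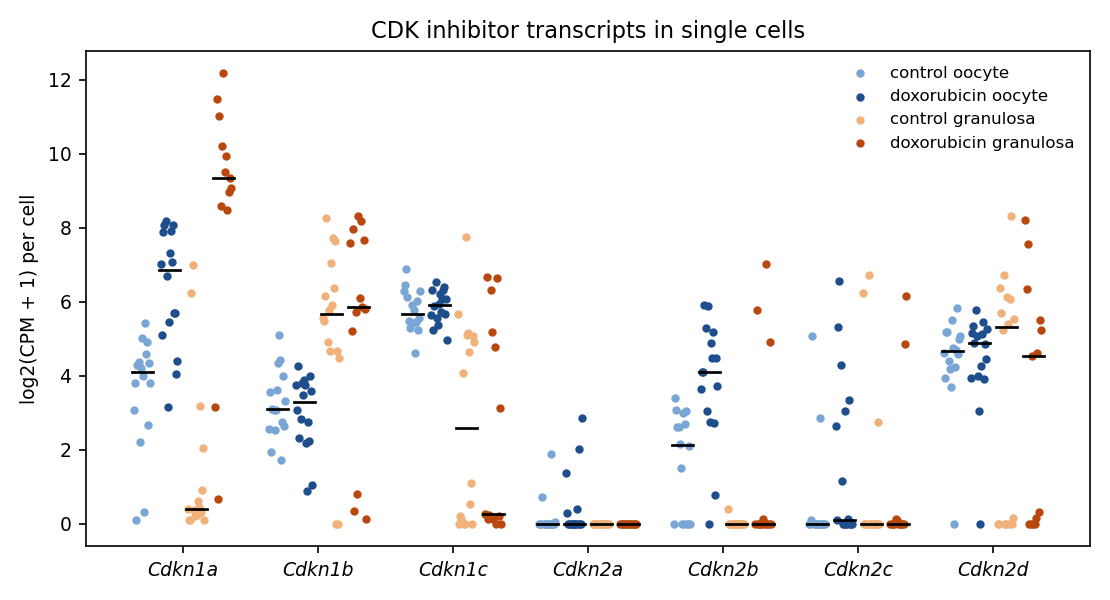
The 7 CDK inhibitor genes in each cell, as log2(CPM + 1), by group. Each point is 1 cell and the short line is the median. Cdkn1a is the gene whose medians differ most between control and doxorubicin cells in both cell types, and in oocytes Cdkn2b also stands higher after doxorubicin.

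Among the kinases and transcription factors upstream of Cdkn1a, Trp73 and Mdm2 stood out in oocytes. None of the 5 DNA damage kinases was past a log2 ratio of 1 in either direction in oocytes (6.29% and 2.45% of all genes were; median 0.26), where Atm was at 0.26, Chek2 at 0.34 and Atr at 0.56. In granulosa cells Atr and Prkdc were at -1.86 and -2.46, against 20% of all genes at -1 or below, and the list's median was -0.92. Atr was at -3.58 without doxorubicin granulosa cell 8, and Prkdc at -0.97 without control cell 16 and -3.38 without doxorubicin cell 7. Of 18 transcriptional regulators, 2 were at 1 or above in oocytes, Trp73 and Mdm2, where 6.29% of all genes were, and the median was 0.03. Trp53, which encodes p53, had log2 ratios of 0.39 in oocytes and -0.28 in granulosa cells. Trp63 was at -0.09 in oocytes, where the control level was 97.3 CPM and the doxorubicin level 91.3 CPM. The granulosa levels were 13.2 and 4.90 CPM. These are transcript levels, and the activation of p53 or TAp63 protein was not measured.

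Trp73, the third member of the p53 family, ranged from 0 to 14.9 CPM in control oocytes, where 3 of 16 cells had a read. It ranged from 0 to 242 CPM in doxorubicin oocytes, where 12 of 16 had one. Its log2 ratio was 4.97 (4.81 to 5.14), or 5.97 without control oocyte 6, and 7 doxorubicin oocytes lay above the highest control. Granulosa cells had 3 counts of Trp73 in each group. Mdm2, which encodes the ubiquitin ligase of p53, had log2 ratios of 2.09 in oocytes and 1.47 in granulosa cells. Mdm4 was at 0.01 and 0.09, and in granulosa cells ran from -0.85 without doxorubicin cell 4 to 1.21 without control cell 8.

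Of 17 regulators measured in granulosa cells, 4 were at 1 or above and 4 at -1 or below, with a median of -0.28. Both counts lie close to the shares over all genes, 20.6% and 20%. Besides Mdm2 the members past a limit were Ep300 (1.74), Sp1 (1.19), Foxo3 (1.10), Trp63 (-1.43), Smad3 (-1.36), Kat5 (-1.12) and Myc (-1.10), a known repressor of Cdkn1a. All 7 came under the limit without 1 cell. Ep300 was at 0.76 without doxorubicin cell 4, Sp1 at 0.36 without doxorubicin cell 14 and Foxo3 at -0.01 without doxorubicin cell 1. Smad3 was at -0.90 without control cell 11, and Kat5 and Myc were at -0.89 and -0.88 without control cell 5. Trp63 was at -0.36 without control cell 4 and -2.74 without doxorubicin cell 8, and Kat5 was at -2.75 without doxorubicin cell 4. Ep300 was at 2.36 without control cell 16. Ep300 was at -1.39 and Foxo3 at -1.57 among granulosa cells with more granulosa than oocyte markers, and by the medians of the cells Sp1 was at -2.95, Smad3 at 0.55 and Trp63 at 0.15. Foxo3 was named after its value was seen.

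Among 12 regulators of the stability of p21 mRNA and protein, none was past 1 in either direction in oocytes (median 0.03). Of all genes there, 6.29% were at 1 or above and 2.45% at -1 or below. In granulosa cells 1 of 12 was at 1 or above and 4 were at -1 or below (median -0.37), where the shares over all genes were 20.6% and 20%. Rbm38, an RNA-binding protein that stabilises Cdkn1a mRNA, had log2 ratios of 0.42 in oocytes, where 8 of 16 doxorubicin cells lay above the highest control, and 1.96 in granulosa cells, or 3.42 without control cell 6. Among granulosa cells with few oocyte markers the latter was -0.76. Skp2, the substrate receptor of a ligase for p21, was at -1.95 in granulosa cells (-2.91 without doxorubicin cell 16), and Cul4b was at -1.68. Dtl, which targets p21 bound to PCNA, was at -1.52 (-5.08 without doxorubicin cell 16). Pcbp4 was at -1.39, which was -0.43 without control cell 2 and -2.39 without doxorubicin cell 15, and 7.60 among granulosa cells with few oocyte markers.

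The proteins that p21 binds differed little at the transcript level in oocytes. None of 11 cyclins, CDKs and Pcna was past 1 in either direction (median 0.10). Of all genes, 6.29% were at 1 or above and 2.45% at -1 or below. Cdk1 was at 0.14, Cdk2 at -0.13, Cdk4 at 0.77, Ccnd2 at -0.11, Ccne1 at -0.07 and Pcna at 0.19. In granulosa cells 1 of 13 was at 1 or above and 2 were at -1 or below (median -0.23), against 20.6% and 20% of all genes. Ccnd1, encoding cyclin D1, had 3 counts in control granulosa cells and 25.6 CPM after doxorubicin, in 5 of 13 cells. Its log2 ratio was 10.58 (9.03 to 12.86), or 9.77 without doxorubicin cell 2. Ccne2 was at -7.64, where control cells had 20.9 CPM and treated cells 0.10 CPM, or -6.89 without control cell 9 and -8.64 without doxorubicin cell 12. Cdk2 was at -1.498. Cdk1, Cdk4, Cdk6, Ccnd2, Ccne1 and Pcna had ratios of -0.23, -0.50, 0.98, -0.60, -0.16 and -0.24. Leaving out 1 control cell turned Cdk1 to 0.16 (cell 6), Ccne1 to 0.96 (cell 5) and Pcna to 0.19 (cell 9). In oocytes it turned Cdk2 to 0.020 and Ccnd2 to 0.093 (both cell 16), and Ccne1 to 0.097 (cell 5).

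Genes of the cell cycle that p21 is known to lower through the retinoblastoma family were not lower as a list in oocytes. Of 20 genes of the G1/S transition, 1 was at 1 or above (6.29% of all genes) and none was at -1 or below (2.45%), with a median of -0.09. That gene was Rrm2, a subunit of ribonucleotide reductase, at 1.27. Of 25 G2/M genes, none was past either limit, against the same shares of all genes, and the median was 0.02. With shares this small, such counts lie near those over all genes. In granulosa cells 4 of 25 G2/M genes were at -1 or below and none was at 1 or above (median -0.30). Of the 20 G1/S genes, 3 were at 1 or above and 7 at -1 or below (median -0.40). The shares over all genes were 20.6% at 1 or above and 20% at -1 or below. The 3 were E2f1 (2.31, or 5.46 without control cell 7), Uhrf1 (1.43, or 0.69 without doxorubicin cell 12) and Gins2 (1.04, or 0.61 without doxorubicin cell 1 and 1.91 without control cell 9), of which the last pair was named after its values were seen. The 7 lower G1/S genes included Cdt1 (-1.36, or -0.81 without control granulosa cell 15 and -6.97 without doxorubicin cell 13) and Rrm2 (-1.17, or 0.14 without control cell 5 and -1.90 without doxorubicin cell 15). Others of the 7, among them Ccne2 (-7.64), stayed at -1 or below whichever 1 cell was left out. By the medians of the cells Cdt1 was at 0.0049 and Rrm2 at 0.27, and among granulosa cells with few oocyte markers Uhrf1 was at -0.38 and Gins2 at -1.76. The 4 were Mki67 (-2.14), Aurkb (-1.95), Kif11 (-1.78) and Kif23 (-1.04). Without doxorubicin cell 16 they were at -3.78, -3.04, -4.90 and -2.40. Without control cell 5 Aurkb was at -0.98 and Kif11 at -0.52, and without control cell 6 Aurkb was at -1.31 and Kif23 at -0.16. By medians Aurkb was at 0.023.

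Other p53-family targets were higher beside Cdkn1a. The list held 42 genes besides Cdkn1a, 41 of them with a row. It was chosen with results of these libraries known, and is not independent evidence of its direction. In oocytes 17 of 36 measured members had a log2 ratio of at least 1 (6.29% of all genes) and none of -1 or below (2.45%), with a median of 0.74 against 0.01 for all genes. In granulosa cells 25 of 39 did (20.6% of all genes) and none was at -1 or below (20%), with a median of 1.67 against -0.03. The oocyte markers were also higher there, with 17 of 17 measured at 1 or above and a median of 1.96, and their part in this count was not tested.

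In oocytes the members named by their stability over cells were Eda2r (6.69), Trp73 (4.97), Phlda3 (4.48), Psrc1 (4.02) and Plk2 (4.01). Eda2r was at 10.52 without control oocyte 9 and Psrc1 at 4.74 without control oocyte 4. Plk2 was at 4.67 without control oocyte 16 and 3.40 without doxorubicin oocyte 11. Phlda3, an inhibitor of AKT signalling, was at 1.71 CPM in control oocytes and at 38.1 CPM in the treated ones, and 11 of 16 lay above the highest control. In granulosa cells they were Pmaip1 (9.19), Pidd1, Trp53inp1 (4.30), Polk (4.04) and Ccng1 (3.70). Pidd1 had no count in control granulosa cells and 796 in doxorubicin cells, so its log2 ratio was at least 8.38 against a floor of 3 counts over the group, or 7.22 without doxorubicin cell 13. Only 6 of 13 doxorubicin granulosa cells had a read of Pidd1. Pmaip1 was at 7.16 without doxorubicin cell 6 and 11.40 without control cell 7. In doxorubicin granulosa cells Pmaip1 had a median of 0.519 CPM and a highest value of 496 CPM. Trp53inp1 was at 4.90 without control cell 11, Polk at 12.26 without control cell 16 and Ccng1 at 4.94 without control cell 13.

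Within the doxorubicin groups, Cdkn1a was related across cells to part of these targets. Spearman rho was taken over log2(CPM + 1) of the cells of 1 group, for genes with at least 5 reads in at least 50% of them. The cells share animals of unknown number, depth and a mixture of cell types, so rho is a description. In doxorubicin oocytes the median rho of 38 targets with Cdkn1a was 0.39 over 16 cells, against -0.03 for all 11933 genes. Given the granulosa marker sum the median was 0.25. In control oocytes the median of 30 targets was -0.06, and in control granulosa cells that of 15 was 0.03, where no target reached 0.6 (1.4% of all genes did). In doxorubicin oocytes a rho of at least 0.6 was reached by 5 targets, against 1.93% of all genes: Fbxw7 (0.68), Pidd1 (0.68), Sesn1 (0.67), Btg2 (0.62) and Ercc5 (0.61). Of these, Fbxw7 and Pidd1 had oocyte log2 ratios of 1.35 and 1.75, while Sesn1, Btg2 and Ercc5 were at 0.45, 0.25 and 0.12. In doxorubicin granulosa cells the median of 30 targets was 0.20 over 13 cells, against 0.05 for all 6683 genes. There 5 targets reached 0.6, against 2.39% of all genes: Ccng1 (0.82), Sesn2 (0.79), Btg2 (0.62), Ei24 (0.61) and Plk2 (0.60). Of these, Ccng1, Sesn2 and Plk2 had granulosa log2 ratios of 3.70, 1.74 and 3.18, while Btg2 and Ei24 were at -0.27 and -0.02. Btg2 and Ei24 changed sign there when 1 cell was left out. Fbxw7, Sesn1, Sesn2, Ercc5 and Ei24 were named after their values were seen.

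Ccng1, encoding cyclin G1, was positively related to Cdkn1a in both doxorubicin groups, with rho of 0.56 in oocytes and 0.82 in granulosa cells. Given the marker sum of the other cell type, its rho was 0.38 in oocytes and 0.83 in granulosa cells. It ranged from 7.79 to 63.8 CPM in control oocytes and from 20.2 to 237 CPM in doxorubicin oocytes, 10 of which lay above the highest control. In granulosa cells it ranged from 0 to 229 CPM in control and from 0.495 to 852 CPM in doxorubicin cells. Mdm2 had a rho of 0.57 in doxorubicin oocytes, or 0.43 given the granulosa marker sum, and of -0.03 in doxorubicin granulosa cells. The difference between these groups was not tested. Single cells departed from the relation. Doxorubicin oocyte 7, with the lowest Cdkn1a of its group (7.90 CPM), had 540 CPM of Mdm2, 98.9 of Ccng1 and 49.9 of Phlda3, each above the highest control oocyte. Doxorubicin oocyte 12, with 269 CPM of Cdkn1a, had 145 CPM of Mdm2, within the control range of 111 to 207 CPM. Doxorubicin granulosa cell 6, with 2077 CPM of Cdkn1a, had 0.462 CPM of Mdm2, while cell 1, with 7.89 CPM of Cdkn1a, had the most Mdm2 (774 CPM). Cells 1 and 6 also held the highest oocyte marker sums of that group, at 46592 and 32879 CPM. The part of oocyte transcripts in their Mdm2 and Cdkn1a levels was not tested.

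**Figure D4:**
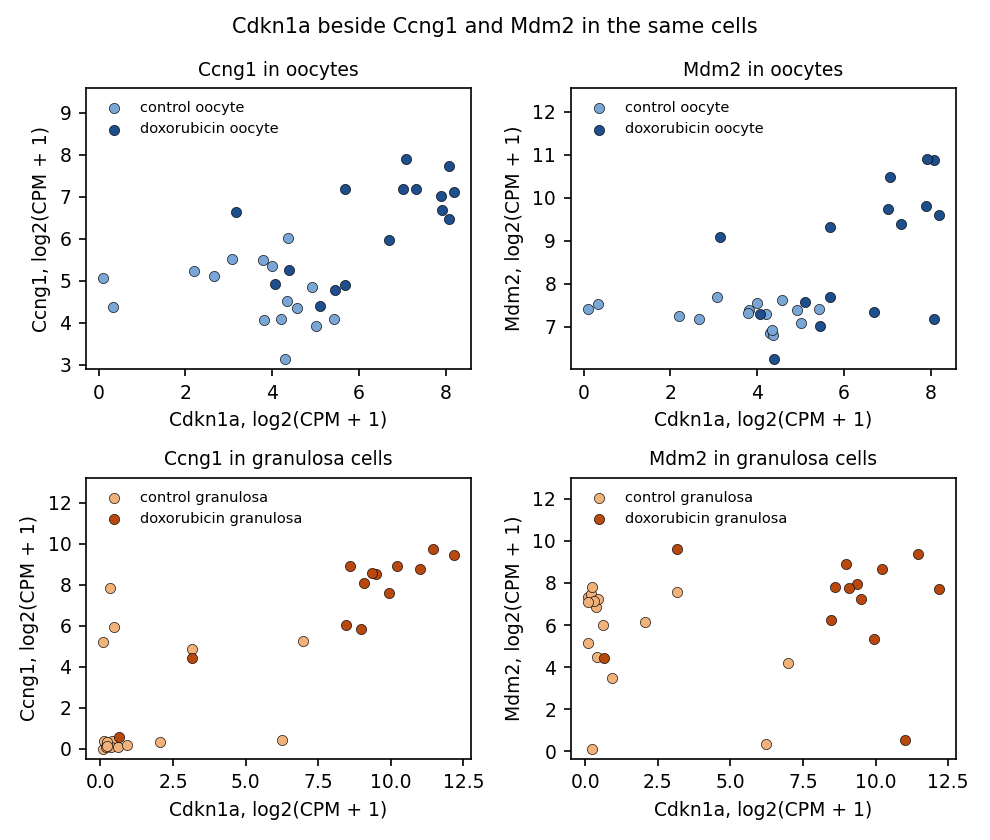
Ccng1 (left) and Mdm2 (right) against Cdkn1a in the same cells, as log2(CPM + 1), for oocytes (top) and granulosa cells (bottom). Each point is 1 cell. Ccng1 and Cdkn1a tend to be high in the same doxorubicin cells (rho 0.56 in oocytes and 0.82 in granulosa cells). Given the granulosa marker sum, the oocyte value was 0.38. In the lower row, 1 doxorubicin granulosa cell with 2077 CPM of Cdkn1a lies near 0 for Mdm2. That cell held 32879 CPM of oocyte markers.

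The regulators and cycle genes showed few relations of that size. In doxorubicin oocytes Ccnd3 (0.67) was the only binding partner at 0.6 or above, and Uhrf1 (-0.68) and Bub1b (-0.69) were at -0.6 or below, as were 2.4% of all genes. In doxorubicin granulosa cells Myc was at -0.75 and Ddb1, a subunit of the ligase that uses Dtl, at -0.68, against 0.913% of all genes at -0.6 or below. In control oocytes Sp1, which binds GC boxes, had a rho of 0.85 and Ccnb2, a cyclin gene, one of 0.66, and 1.29% of all genes reached 0.6. In doxorubicin oocytes Sp1 was at 0.41 and Ccnb2 at -0.25. Ccnd3, Ccnb2, Uhrf1, Bub1b and Ddb1 were named after their values were seen.

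The genes most like Cdkn1a were chosen among those with at least 5 reads in at least 75% of the cells, ranked by the rho nearest 0 over leaving out each cell. Among 10245 such genes in doxorubicin oocytes the highest were Myo5c (0.86), Eldr (0.85), Phlda1 (0.84), Suv39h1 (0.83), which encodes a histone H3 lysine methyltransferase, Nfe2l2 (0.80), which encodes the oxidative stress regulator NRF2, Gstm6 (0.79), Uvrag (0.79), Sap30 (0.79), Med10 (0.78) and Cisd1 (0.77). The lowest were Il1r1 (-0.93), D10Wsu102e (-0.87), Rps6kc1 (-0.87), Ccdc50 (-0.87) and Dlg1 (-0.86). Given the granulosa marker sum, Myo5c was at 0.79, Phlda1 at 0.79 and Il1r1 at -0.90. None of these 15 genes had a rho past 0.6 in either direction in doxorubicin granulosa cells.

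Among 3856 genes in doxorubicin granulosa cells the highest were Tcf4 (0.88), Tspo (0.85), Dtnbp1 (0.84), Tspan7 (0.83), Ccng1 (0.82), Dlat (0.82), Kcmf1 (0.81), Wdr33 (0.81), Ube2w (0.80) and Kif4 (0.79). Among the lowest were Supt16 (-0.87), a subunit of the FACT histone chaperone, Selenof (-0.77), Srp54a (-0.76) and Cd151 (-0.76). Over both doxorubicin groups, 3686 genes qualified. The 5 with the highest smaller rho were Pigf (0.71 in oocytes and 0.66 in granulosa cells), Tomm22 (0.64 and 0.76), Btg2 (0.62 and 0.62), Hras (0.59 and 0.79) and Ccng1 (0.56 and 0.82). Only Ccng1 and Btg2 of these 5 are on the p53-family list.

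Genes around Cdkn1a on chromosome 17 did not share one pattern. Trp53cor1, the long noncoding RNA known as lincRNA-p21, lies 11797 bases from Cdkn1a on the other strand. It had no read in control oocytes, doxorubicin oocytes or control granulosa cells. In doxorubicin granulosa cells it had 717 reads in 5 of 13 cells, with 50.3 CPM in cell 16, so its log2 ratio was at least 8.23 against a floor of 3 counts over the group, or 6.35 without that cell. Rab44, a gene of the Rab GTPase family, lies 13418 bases downstream. It ranged from 0 to 7.41 CPM in control oocytes, with a read in 2 of 16, and from 0 to 119 CPM in doxorubicin oocytes, with a read in 9 of 16. Its log2 ratio was 5.55 (5.26 to 5.87), or 10.41 with control oocyte 14 left out and 4.96 with doxorubicin oocyte 4 left out, and 8 of 16 doxorubicin oocytes lay above the highest control. It had no count in granulosa cells.

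The other neighbours within 100 kb differed less in oocytes. Srsf3, encoding a splicing factor, had log2 ratios of 0.25 in oocytes and -0.93 in granulosa cells, and Stk38, a kinase gene, of 0.08 and -1.10, the last being -0.65 without control granulosa cell 13. Gm16196 and Cpne5 stayed under 5 CPM in all groups. Rpl35a-ps3, a pseudogene that may share reads with its parent gene, had 2.96 and 3.33 CPM in oocytes and 6.41 and 4.68 CPM in granulosa cells. Cdkn1a overlaps 1 annotated antisense gene, which has no row in the table. The strand setting of the counting is not given in the sources used here, so reads of the 2 strands may be joined.

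**Figure D5:**
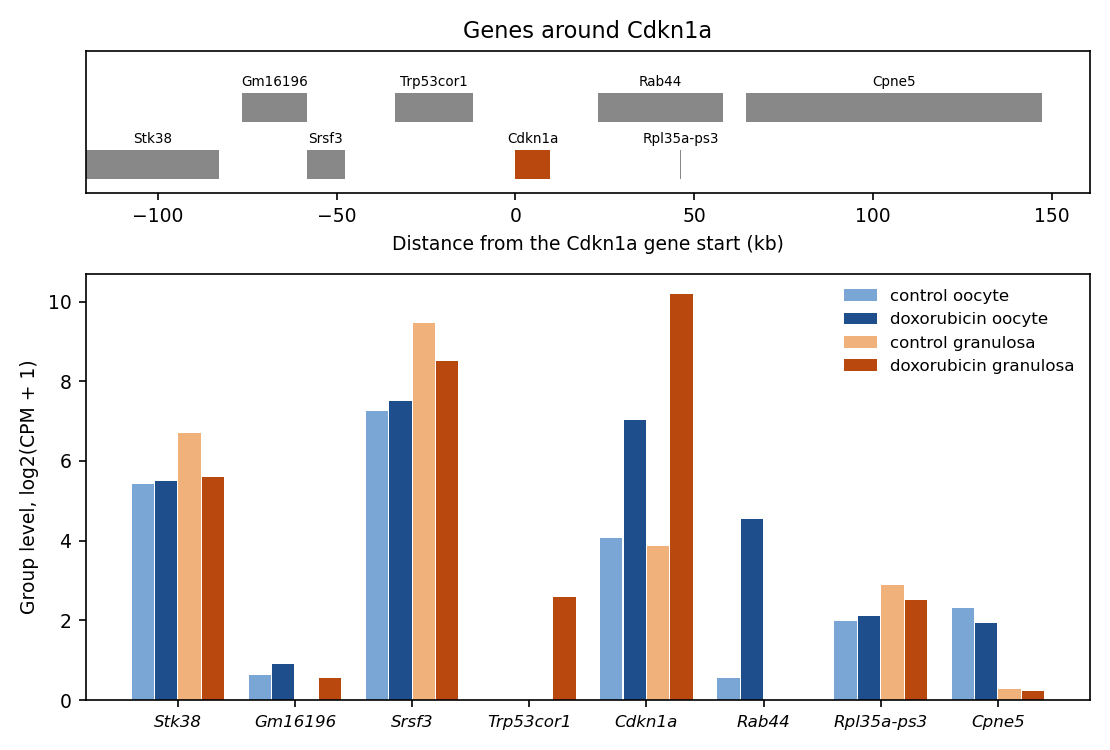
Genes with a row in the table around Cdkn1a: their place as the distance from the start of Cdkn1a in kilobases (top, with Stk38 running beyond the left edge) and their group levels as log2(CPM + 1) of summed counts (bottom). Doxorubicin groups are the higher ones for Cdkn1a in oocytes and granulosa cells, for Rab44 in oocytes and for Trp53cor1 in granulosa cells.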

How the data were processed

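Libraries of single cells were made with a SMART-seq v4 kit and Nextera XT tagging and sequenced as paired ends, per the labels' protocols. The authors deposited estimated counts per gene, 1 column per cell. Of the values above 0, 27.1% were more than 0.001 from a whole number, and all were rounded here. The submitters' processing notes name Partek, Bowtie2, HISAT2, DESeq2 and mm10, with no role or order. The annotation, the strand setting and the version of each are not given in the sources used here. All 61 columns matched a labelled cell. The 22 rows whose symbols had become dates (0.144% of counts) stayed in the totals and were left out of the gene comparisons.

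Counts were summed over the cells of a group and divided by the summed total. A log2 ratio was given where the gene reached 5 CPM in 1 of the groups compared, with a floor of 3 counts and an exact conditional 95% interval. A ratio of at least 1 or at most -1 was counted. No p-value was computed, because each group is 1 sample. Spearman rho used log2(CPM + 1). No doublet caller was run, and no cell was left out.

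The gene and the gene lists were chosen with earlier results of these data known. Named genes were Cdkn1a, the CDK inhibitors, 17 regulators and partners chosen by name, up to 5 genes per list and cell type that passed the limit with the smallest ratio over leaving out 1 cell being largest, the genes most and least like Cdkn1a, and genes within 100 kb. A gene that this rule names is not reported here. Alternatives were edgeR 4.0.16 and DESeq2 1.42.0 scaling (R 4.3.3), means and medians of cells, unrounded counts, other filters, each cell left out in turn, and cells with few markers of the other type. Computation used Python 3.11.15 with scipy 1.17.1, pandas 2.3.3 and numpy 2.4.6, and drawing used matplotlib 3.10.9. Counts were simulated with 200 genes changed by a log2 ratio of 2 in either direction. The medians recovered were 1.98 and -2.04 for the oocyte comparison (10445 genes) and 1.89 and -2.03 for the granulosa comparison (10913 genes). Every simulated gene varied between cells by the same gamma noise. Genes whose reads rest on few cells, as in the granulosa groups, were not simulated, so the recovery does not cover them.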

Additional observations from a re-analysis of the deposited data

Results flagged for a closer look

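For 23 named genes the log2 ratio of doxorubicin over control had opposite signs in oocytes and granulosa cells, and kept each sign when any 1 cell was left out. The counting interval of each ratio also had to keep that sign. The share of all genes that meets this rule was not counted, so the number is not a result about the named genes. The difference between the cell types was not tested. In 10 of the 23 the sign turned in a cell type by the medians of the cells or among cells with few markers of the other type.

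The 13 whose signs did not turn under those settings include the kinases Atm and Atr, at 0.26 and 0.56 in oocytes and at -0.92 and -1.86 in granulosa cells. Without doxorubicin granulosa cell 7 Atm was at -2.98 there. Myc was at 0.88 and -1.10, but its oocyte ratio was 0.048 with doxorubicin oocyte 11 left out and reached 1.52 with control oocyte 7 left out. Cdk4 was at 0.77 and -0.50, Dtl at 0.76 and -1.52, E2f1 at -0.27 and 2.31 and Srsf3, a neighbour of Cdkn1a, at 0.25 and -0.93. Of the genes most or least like Cdkn1a across cells, Myo5c was at 2.34 and -2.45, Eldr at 1.97 and -1.18, Ccdc50 at 0.19 and -1.10, Dtnbp1 at 0.47 and -0.55, Srp54a at 0.30 and -1.43 and Wdr33 at 0.078 and -0.47. Without control oocyte 10 Myo5c was at 4.54, and without doxorubicin granulosa cell 14 at -8.51. Eldr was at -0.0091 without control granulosa cell 5. By the medians of the cells Myo5c and Eldr were at 0 in granulosa cells, so that setting could not turn their sign there.

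The 10 whose sign turned were as follows. Trp53 was at 0.39 in oocytes and -0.28 in granulosa cells, the latter 0.11 among cells with few oocyte markers. Among such cells Pcbp4 (0.57 and -1.39) was at 7.60, Uhrf1 (-0.69 and 1.43) at -0.38, Suv39h1 (1.13 and -0.81) at 0.35, Tspo (-0.16 and 0.76) at -0.45, Selenof (0.23 and -0.27) at 0.059 and D10Wsu102e (-0.40 and 0.51) at -0.84. Cdkn1b (-0.19 and 0.51) was at -0.68 there. By medians Cdt1 (0.091 and -1.36) was at 0.0049 and Phlda1 (1.08 and -0.70) at 0.078 in granulosa cells.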

How the results depend on the processing

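The direction of both Cdkn1a drug ratios was the same under every alternative run. The oocyte ratio (3.06) was 2.99 from the mean of the cells' CPM, 2.76 from medians and 2.24 among cells with few markers of the other type, and it ranged from 2.91 to 3.20 over leaving out 1 cell. The granulosa ratio (6.42) was 8.95 from medians and 4.91 among such cells, and ranged from 5.97 to 7.62. Control oocytes over control granulosa cells (0.21) was 3.70 from medians, reversed to -0.20 among such cells, and ranged from 0.072 to 1.41. Doxorubicin oocytes over granulosa cells (-3.15) was -2.49 from medians, -3.10 with DESeq2 scaling and -2.87 among such cells, and ranged from -3.30 to -2.70. Without doxorubicin oocyte 4 the last was -3.28. The median rho of p53-family targets in doxorubicin oocytes (0.39) was 0.25 given granulosa markers and ranged from 0.34 to 0.51. In doxorubicin granulosa cells (0.20) it was 0.13 by Pearson's r on log2(CPM + 10) and 0.10 in the 5 cells with few oocyte markers, and ranged from 0.13 to 0.24. At a minimum of 20 CPM, 11 of 25 measured oocyte targets reached a ratio of 1, against 17 of 36. Some granulosa ratios of single genes reversed. By medians Aurkb was at 0.023, Cdt1 at 0.0049, Fbxw7 at -1.51, Rrm2 at 0.27, Smad3 at 0.55, Sp1 at -2.95 and Trp63 at 0.15. Among cells with few oocyte markers Cd151 was at -0.41, Ep300 at -1.39, Foxo3 at -1.57, Gins2 at -1.76, Pcbp4 at 7.60, Rbm38 at -0.76, Rps6kc1 at 4.48 and Uhrf1 at -0.38. Over leaving out 1 cell Foxo3 ranged from -0.015 (without doxorubicin cell 1) to 1.55, and Rrm2 from -1.90 to 0.14 (without control cell 5). The causes were not tested. No paired analysis was possible because the numbers name single cells, no result comes from a test, and no animal is named. Ratios and rho were not recomputed at a lower depth.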
